A study of Mus musculus with 7 samples.

Results

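The genes described here are 35 members of the endoplasmic reticulum (ER) protein-folding machinery and of the stress signalling attached to it, from the chaperones of the ER lumen to the targets of the transcription factor Atf4. They were chosen by name. A member was measured by each array probe whose gene symbol, current or older, was on that list, and was summarised by the probe with the highest mean intensity over the 7 arrays. By this rule 34 of the 35 members had at least 1 probe, 61 probes in all, out of 19057 genes with a named probe, and Dnajb11 was not analysed here. Liver RNA was measured on Illumina BeadArrays, 1 array per sample, in male C57BL/6J mice at postnatal day 28. The 4 control samples and the 3 ethanol samples shared strain, sex, age and tissue. The ethanol samples came from offspring whose dams could drink 10% ethanol (v/v) freely from fertilization until gestational day 8.5, so the liver was sampled long after the exposure had ended. The labels give this treatment text on control samples too, and the groups were therefore taken from the sample titles. The labels state neither what the control dams drank nor which samples were littermates, so the p-values speak only of the spread among these animals.

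The ER folds secreted proteins, which a hepatocyte makes in large amounts. When unfolded protein accumulates, the membrane sensors Ern1 (IRE1), Eif2ak3 (PERK) and Atf6 raise the output of chaperones and of the degradation machinery. Eif2ak3 and related kinases also phosphorylate the initiation factor eIF2, which lowers general translation while favouring translation of Atf4. This branch, the integrated stress response, is also started by amino acid shortage and other stresses that leave the ER chaperones alone.

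No member passed the threshold, an adjusted p of 0.05 in limma after Benjamini-Hochberg adjustment over all 23829 tested probes. A probe was tested where its normalised log2 level lay above the median of its array on at least 3 arrays, which held for 32 members and for 48 of their 61 probes. Over all tested genes the threshold was passed by 0.0314%, which is 4 of 12749 genes, and over all tested probes by 0.021%. In whole liver, fewer cells of a type and less RNA per cell cannot be told apart. The smallest adjusted p among the members was 0.429. At an unadjusted limma p under 0.05 there were 8 members, or 25.0% of those tested, against 9.12% of all tested genes and 8.8% of all tested probes. Of these, 3 were higher in ethanol livers (Eif2ak3, Ddit4 and Chac1), where the share over all tested genes was 4.22%. The other 5 were lower (Hspa5, Xbp1, Atf4, Trib3 and Fgf21), where the share over all genes was 4.9%. The members are regulated in common and were chosen with earlier results of these data known, so no test was made of the difference between these shares. With 1 probe per gene, the count at an unadjusted p under 0.05 ran from 3 members (9.38%, against 7.78% of all tested genes) with unmoderated variances to 11 members (34.4%, against 9.48%) without control 3.

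The members were spread around no change. The median log2 fold change, ethanol minus control throughout, was 0.06 over the 32 tested members and 0.00 over all tested genes. A value above 0 was found in 59.4% of members and in 49.6% of all genes. The 4 members with a log2 fold change over 0.5 in size were Ddit4, Chac1, Trib3 and Fgf21, all of them downstream genes of the integrated stress response, and they pointed in opposite directions. That size was reached by 12.5% of members and by 1.45% of all tested genes. These shares were not matched for intensity, and the scale, with its offset of 50, understates the change of dim probes. Requiring probes above background left 29 of the 32 members and 8784 of the 12749 genes. Of these, 24.1% of members and 10.2% of genes had an unadjusted limma p under 0.05. In 4 members the groups did not overlap on the normalised scale, Hspa5 and Trib3 lower and Eif2ak3 and Ddit4 higher. This is 12.5% of members against 8.96% of all tested genes, with 4.16% higher and 4.8% lower among all genes. With only probes above background these shares were 13.8% of members and 10.4% of genes. Leaving out 1 animal raises the share over all genes by construction. Without control 3 the count of members was 8 (25.0%, against 14.5% of all tested genes) and without ethanol 3 it was 8 (25.8%, against 15.9%). Without control 2 it was 7 (22.6%, against 12.6%) and without ethanol 2 it was 7 (21.9%, against 20.3%), while without ethanol 1 it was 4 (12.5%, against 18.1%).

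**Figure D1:**
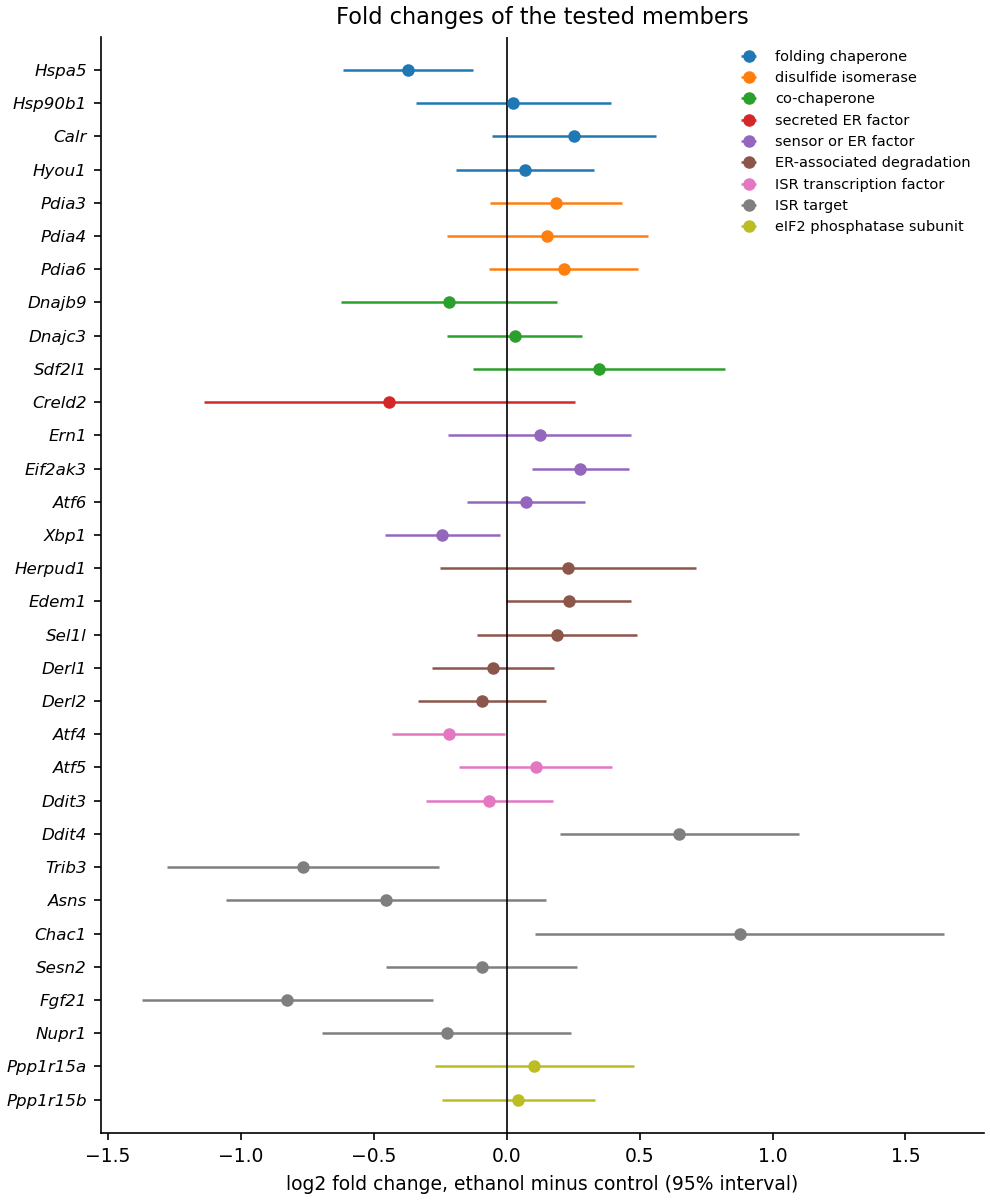
Log2 fold change of each of the 32 tested members (ethanol minus control, horizontal axis), with its 95% interval from limma, coloured by role. Values of chaperones and degradation genes lie between -0.44 and 0.35, and the values farthest from 0 are those of Chac1 (0.88), Fgf21 (-0.83), Trib3 (-0.77) and Ddit4 (0.65).

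Among the folding chaperones, Hspa5 was the exception in a group of values near or above 0. Hspa5 (BiP) is the Hsp70 of the ER lumen and holds the sensors inactive when folding capacity is sufficient. Its intensity was 79.8, 86.5, 128 and 82.7 in control livers and 59.9, 45.1 and 60.8 in ethanol livers. All 3 ethanol values lay below the lowest control value. Its log2 fold change was -0.37 ± 0.11 (SE, 95% interval -0.61 to -0.13, adjusted p 0.429 in limma), and -0.73 without background correction. The member rests on a single probe. Its signals, 45.1 to 128, were low beside those of another folding chaperone, Hsp90b1, at 4509 to 8071. The limits above which a probe was called above background ran from 21.3 to 26.9 between arrays. How well this probe reports the transcript was not tested.

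The Hsp90 of the ER, Hsp90b1 (GRP94), had 4509, 6487, 8071 and 6665 in control livers against 7568, 5922 and 6260 in ethanol livers. The ethanol values fell inside the control range, and the log2 fold change was 0.02 ± 0.17 (SE, 95% interval -0.34 to 0.39). Calr, the lectin chaperone calreticulin, had 833, 1140, 1430 and 1188 against 1347, 1470 and 1277, a log2 fold change of 0.25 ± 0.14. Without control 1, the animal with the lowest value, that of Calr was 0.13. Hyou1, a large Hsp70 relative that exchanges the nucleotide of Hspa5, had 72.2 ± 18.5 (SD, n = 4) and 77.5 ± 13.1 (SD, n = 3), a log2 fold change of 0.07. Canx, the membrane-bound partner of Calr, was not above background on any array and was not tested.

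The protein disulfide isomerases, which form and rearrange disulfide bonds, all had positive values whose intervals included 0. Pdia3, the partner of the lectin chaperones, had 5252 ± 646 (SD, n = 4) in control livers and 6078 ± 693 (SD, n = 3) in those of the ethanol group, which gave a log2 fold change of 0.19 (95% interval -0.06 to 0.43). Pdia4 had 1508 ± 386 and 1636 ± 105, or 0.15. Pdia6, which also damps the sensor Ern1, had 264 ± 49.1 and 315 ± 47.5, or 0.22, and its second probe gave 0.11. In each of the 3 genes the groups overlapped and control 1 held the lowest value.

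The co-chaperones of Hspa5 and the secreted ER factors diverged more. Dnajb9 (ERdj4), a J protein under the control of Xbp1, had a log2 fold change of -0.22 ± 0.18 (SE), and -0.35 at its second probe. Without ethanol 2 its value was -0.045 and without ethanol 1 it was -0.38. Dnajc3 (p58IPK), a J protein that also restrains Eif2ak3, had 0.03 ± 0.11. Sdf2l1, which works with Hspa5 to slow aggregation of its clients, had 270, 447, 729 and 494 in control livers against 668, 588 and 563, a log2 fold change of 0.35 ± 0.22. Only control 1 and control 3 lay outside the range of 447 to 668 that the other animals filled, and without control 1 the value was 0.14. Creld2, a secreted disulfide isomerase strongly induced by ER stress, had 911, 1942, 3051 and 1760 in control livers against 1812, 999 and 1159. Its control range enclosed all ethanol values. Creld2 had a log2 fold change of -0.44 ± 0.32 (SE), with -0.38 at the second probe, and the value ran from -0.73 without control 1 to -0.19 without control 3. Manf, a small secreted protein retained in the ER until stress, was not above background on any array.

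**Figure D2:**
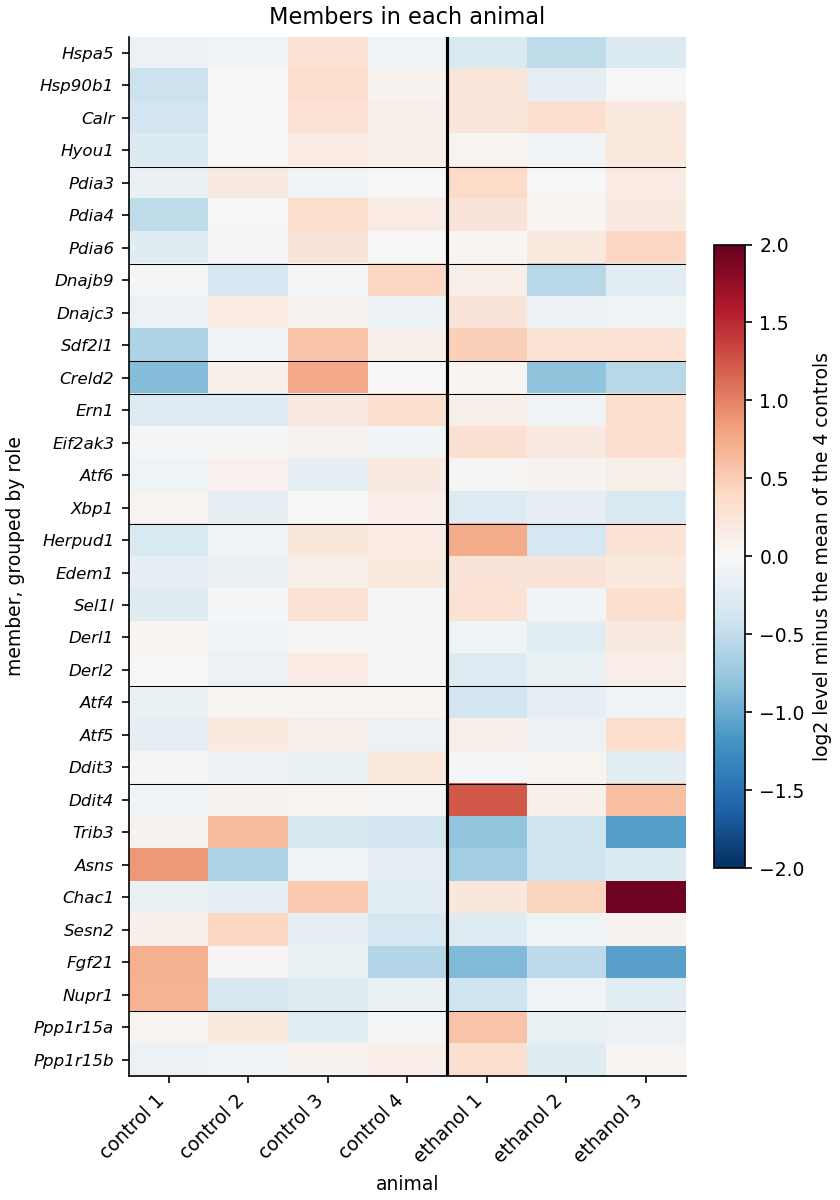
Normalised log2 level of each tested member in each animal, minus the mean of the 4 controls (colour scale from -2 to 2), with horizontal lines between roles and a vertical line between the groups. Control 1 is the lowest animal in most chaperone rows, while the rows from Ddit4 to Nupr1, effectors of the integrated stress response, show single animals that stand out in either direction.

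Many ER chaperone promoters carry a known response element of Atf6 and Xbp1, and the sites in the members are shown as sequence. The members were chosen by name as genes of ER folding and its stress signalling. Their share with the element is therefore not independent of that choice. Promoter windows from RefSeq (GRCm38.p6), 250 bases before to 50 bases after the annotated start, were matched by symbol for 30 of the 35 members, all but Hyou1, Manf, Atf6, Derl1 and Ppp1r15b. The ER stress response element (ERSE), CCAAT and CCACG with 9 bases of any kind between them, was searched on both strands. It was found in 7 of the 30 members with a window, and in 0.137% of all 27025 genes with a window (37 genes). Each stretch is written 5′ to 3′ on the strand of the gene with 20 bases on either side, and the capitals mark the element, which reads from CGTGG to ATTGG where it lies on the opposite strand.
Hspa5: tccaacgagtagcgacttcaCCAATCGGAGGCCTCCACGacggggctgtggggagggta
Hsp90b1: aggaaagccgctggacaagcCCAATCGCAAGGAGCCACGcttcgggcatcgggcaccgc
Hsp90b1: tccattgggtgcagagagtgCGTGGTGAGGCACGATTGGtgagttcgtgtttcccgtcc
Calr: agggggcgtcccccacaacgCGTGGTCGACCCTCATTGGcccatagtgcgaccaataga
Canx: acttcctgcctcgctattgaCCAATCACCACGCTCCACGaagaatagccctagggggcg
Pdia6: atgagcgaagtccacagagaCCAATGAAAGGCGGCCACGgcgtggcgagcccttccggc
Dnajc3: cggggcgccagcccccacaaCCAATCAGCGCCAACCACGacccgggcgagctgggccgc
Creld2: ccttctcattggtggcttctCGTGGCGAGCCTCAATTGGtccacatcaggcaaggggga
The stretch of Hspa5 lies at chr2:34772005-34772063 (plus strand), with the first base of the element at -65 from the start. Those of Hsp90b1 lie at chr10:86705618-86705676 and chr10:86705513-86705571 (minus strand), with the elements at -212 and -107. Calr has its site at chr8:84847055-84847113 (minus strand, -162) and Canx at chr11:50325780-50325838 (minus strand, -145). Pdia6 has it at chr12:17266471-17266529 (plus strand, -98), Dnajc3 at chr14:118937807-118937865 (plus strand, -105) and Creld2 at chr15:88819500-88819558 (plus strand, -126). The 6 tested members with this element did not share a direction, with log2 fold changes from -0.44 for Creld2 and -0.37 for Hspa5 to 0.22 for Pdia6 and 0.25 for Calr. Among the other 9 tested genes with it, 6 had positive and 3 negative values and none passed the threshold. A related element bound by Xbp1, TGACGTGG, was found in no member window and in 0.714% of all genes.

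Among the sensors and the transcription factors next to them, Eif2ak3 was the member whose groups did not overlap. Eif2ak3, the eIF2 kinase of the ER membrane, had an intensity of 22.9, 28.0, 30.8 and 23.1 in control livers and 48.1, 39.6 and 51.1 in ethanol livers. All ethanol values were above all control values. These signals were close to the limits above which a probe was called above background, which ran from 21.3 to 26.9 between arrays, and control 4 was not above its limit. Eif2ak3 had a log2 fold change of 0.28 ± 0.08 (SE, 95% interval 0.10 to 0.46, adjusted p 0.429 in limma). This scale, with an offset of 50 added to every intensity, understates the change of dim probes, and without background correction the value was 0.84 (adjusted p 0.328). The second probe of Eif2ak3 was not above background on any array.

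Xbp1, whose transcript is spliced by Ern1 into the active factor and which also drives secretory capacity and lipid synthesis in hepatocytes, had 8345, 7481, 8405 and 9394 in control livers against 7060, 7954 and 6631. Ethanol 2 lay inside the control range and the other ethanol animals below it. Xbp1 had a log2 fold change of -0.24 ± 0.10 (SE, 95% interval -0.46 to -0.03, adjusted p 0.533 in limma). The array does not tell the spliced from the unspliced form. Ern1, the splicing enzyme and oldest of the sensors in evolution, had 140, 143, 219 and 246 in control livers against 203, 173 and 243, a log2 fold change of 0.12, with the ethanol values inside the control range. Atf6, cut in the Golgi to release a transcription factor, was not above background on any array, although its probe entered the test (0.07).

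The genes of ER-associated degradation, which withdraw misfolded proteins from the ER for the proteasome, had values between -0.09 and 0.23. Herpud1, an adaptor of the ubiquitin ligase complex, had 9204, 11776, 14259 and 14072 in control livers against 20840, 10183 and 14352. Ethanol 1 held the highest value of all animals and ethanol 2 lay low in the control range. Its log2 fold change was 0.23 ± 0.22 (SE), 0.20 at the second probe, and without ethanol 1 this was -0.03. Edem1, a lectin that marks trimmed glycoproteins for removal, had 66.6, 71.2, 98.2 and 106 in control livers against 113, 116 and 104. Of the ethanol values only that of ethanol 3 lay inside the control range, and the log2 fold change was 0.23 ± 0.11 (SE, adjusted p 0.571 in limma). Sel1l, the scaffold of the ligase Syvn1, had 0.19, with 0.01 to 0.17 at its other probes. Derl2, a channel component, had -0.09, with -0.22 at its second probe, and Derl1 was not above background on any array.

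Of the transcription factors of the integrated stress response, Atf4 itself had 1989, 2341, 2329 and 2255 in control livers against 1668, 1999 and 2028. Control 1 lay beside ethanol 2 and ethanol 3, and the other 3 controls lay above all ethanol values. For Atf4 the log2 fold change was -0.22 ± 0.10 (SE, adjusted p 0.556 in limma), while the second probe of Atf4 gave 0.03. Without ethanol 1 the value was -0.13. Atf4 is controlled mainly at translation, which the array does not measure. Atf5, a related factor with the same kind of translational control and high expression in liver, had 5378 ± 767 (SD, n = 4) and 5853 ± 776 (SD, n = 3), a log2 fold change of 0.11. Ddit3 (CHOP), the factor tied to cell death under prolonged stress, had 100 ± 18.0 and 92.0 ± 16.9, or -0.06, with 0.02 at its second probe.

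The targets of Atf4 held both the highest and the lowest values. Trib3, a pseudokinase that feeds back on Atf4 and binds Akt, had 742, 1148, 563 and 524 in control livers against 383, 525 and 288 in ethanol livers. Ethanol 2 and control 4 had nearly the same intensity, and on the normalised scale the groups just failed to overlap. Trib3 had a log2 fold change of -0.77 ± 0.23 (SE, 95% interval -1.28 to -0.25, adjusted p 0.437 in limma). The other probes of Trib3 gave -0.04, with all 7 animals above background, and -0.28. At the latter no ethanol animal was above background, against 3 of 4 control animals. With the ethanol animals set to their background limits and control 4 as measured, controls averaged 1.06-fold higher on the normalised scale.

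Fgf21, a hormone that the liver secretes on fasting and amino acid shortage, had 603, 359, 312 and 207 in control livers against 157, 223 and 126. Control 4 lay between the ethanol animals and the other controls lay above them. Fgf21 had a log2 fold change of -0.83 ± 0.25 (SE, 95% interval -1.37 to -0.28, adjusted p 0.433 in limma). Asns, asparagine synthetase and a classical reporter of amino acid shortage, had 1138, 381, 580 and 529 against 354, 455 and 486. Its value of -0.45 ± 0.27 rested on control 1, and without that animal it was -0.16. The second probe of Asns, above background on all 7 arrays, gave -0.21, with control 1 again highest. Nupr1, a small stress-induced chromatin protein, had 407, 172, 182 and 201 against 157, 220 and 181, or -0.23, and 0.01 without control 1.

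Ddit4 (REDD1), an inhibitor of mTORC1 that also answers to glucocorticoids and hypoxia, had 78.9, 97.9, 94.4 and 85.6 in control livers against 307, 103 and 167. The control animals lay close together, ethanol 2 just above them and ethanol 1 far above. Ddit4 had a log2 fold change of 0.65 ± 0.20 (SE, 95% interval 0.20 to 1.10, adjusted p 0.452 in limma), and 0.35 without ethanol 1. Chac1, an enzyme that breaks down glutathione, had 138, 134, 268 and 129 in control livers against 201, 247 and 800. Control 3 lay above ethanol 1 and ethanol 2, and ethanol 3 above all other animals. The log2 fold change was 0.88 ± 0.35 (SE, 95% interval 0.11 to 1.64, adjusted p 0.533 in limma), and 0.34 without ethanol 3. The animals with the highest Ddit4 (ethanol 1) and the highest Chac1 (ethanol 3) were not the same.

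Sesn2, a leucine sensor upstream of mTORC1, exceeded background in 2 of the control animals and in none of the ethanol group, with intensities from -0.22 to 47.6. The subunits that direct a phosphatase to eIF2 and end the response were also near no change. Ppp1r15a (GADD34), the inducible subunit, had 87.5, 104, 60.5 and 76.7 in control livers against 155, 67.2 and 66.9, a log2 fold change of 0.10 ± 0.17. Only ethanol 1, the animal with the highest Ddit4 and Herpud1, lay outside the control range, and without it the value was -0.13. Ppp1r15b, the constitutive subunit, had 0.04 ± 0.13.

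**Figure D3:**
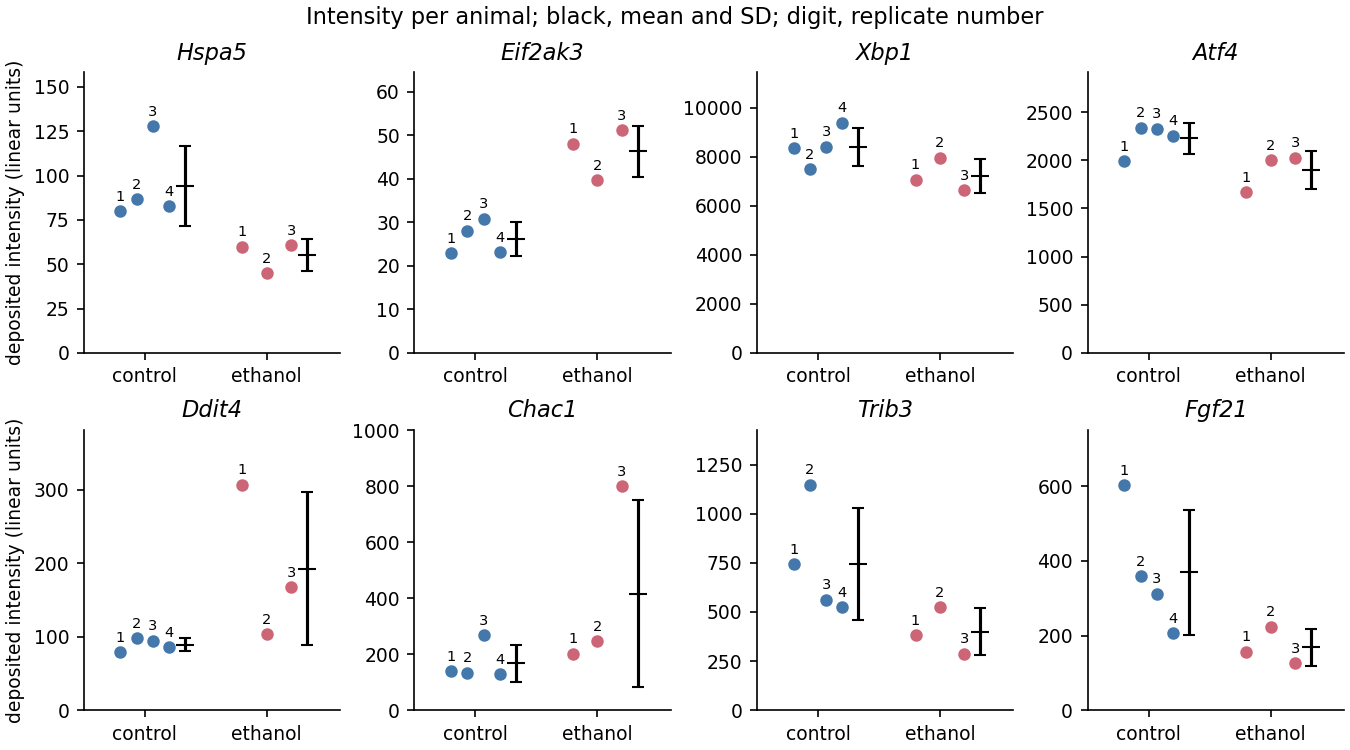
Deposited intensity per animal (linear units, axes from 0) of the 8 members with an unadjusted p under 0.05, with the mean and SD of each group in black and the replicate number above each point. The ethanol values of Hspa5 lie below and those of Eif2ak3 and Ddit4 above all control values, while the mean of Chac1 is set by ethanol 3.

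Genes that Atf4 activates commonly carry a C/EBP-ATF response element (CARE). The sites of these members were chosen for display after the opposite signs of their genes were seen. The members include Atf4 targets by choice, so their share with the element is not independent of it. The motif TGATGNAA was searched on both strands of the same windows. It was found in 6 of 30 members and in 4.51% of all genes, and no match overlapped a match of another motif in the members. The capitals mark the element, which ends in CATCA where it lies on the opposite strand.
Chac1: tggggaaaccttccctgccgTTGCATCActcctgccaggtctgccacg
Fgf21: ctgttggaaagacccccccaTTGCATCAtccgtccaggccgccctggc
Nupr1: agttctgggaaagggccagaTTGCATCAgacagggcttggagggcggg
Herpud1: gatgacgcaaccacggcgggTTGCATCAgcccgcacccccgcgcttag
Trib3: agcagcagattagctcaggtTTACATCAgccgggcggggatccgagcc
Asns: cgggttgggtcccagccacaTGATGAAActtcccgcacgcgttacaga
The element begins at -193 from the start of Chac1 (chr2:119351029-119351076, plus strand), at -139 in Fgf21 (chr7:45615602-45615649, minus strand) and at -110 in Nupr1 (chr7:126625553-126625600, minus strand). It begins at -112 in Herpud1 (chr8:94386297-94386344, plus strand), at 14 in Trib3 (chr2:152344019-152344066, minus strand) and at -23 in Asns (chr6:7693205-7693252, minus strand). The log2 fold changes of these 6 genes were 0.88, -0.83, -0.23, 0.23, -0.77 and -0.45 in the order of the sequences. Chac1 and Fgf21 share the letters of the element and differ in sign. Neither passed the threshold (adjusted p 0.533 and 0.433 in limma), and Chac1 had 0.34 without ethanol 3. Of the other 297 tested genes with the motif, 142 had positive and 155 negative values, and 1 passed the threshold in limma, Angptl8 (-1.81), named here after its value was seen. Herpud1 also holds ERSE-II, a shorter ER stress element with ATTGG and CCACG 1 base apart, searched on both strands, which occurs in 0.0444% of all genes (12 genes, Dnajb11 among them).
Herpud1: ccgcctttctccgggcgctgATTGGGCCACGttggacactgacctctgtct
That stretch lies at chr8:94386357-94386407 (plus strand), with the element at -52 from the start.

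Set side by side, the ER chaperones and the Atf4 targets had medians on either side of 0. The Atf4 targets of this contrast were Atf5, Ddit3, Ddit4, Trib3, Asns, Chac1, Sesn2, Fgf21, Nupr1 and Ppp1r15a. Over the 11 tested of 14 chaperones the median log2 fold change was 0.07, with 8 positive and 3 negative values, and over the 10 Atf4 targets it was -0.08, with 4 positive and 6 negative. The difference of the medians was 0.15, and it ran from 0.0069 without control 1 to 0.28 without control 3. In the other settings it ran from 0.09 to 0.35, the latter without background correction. With the control mean set to 0, the chaperones had an average log2 level of -0.34, -0.0034, 0.27 and 0.07 in controls 1 to 4 and 0.16, -0.12 and 0.03 in the ethanol animals. That of the Atf4 targets was 0.21, 0.03, -0.07 and -0.18 in the controls and -0.09, -0.11 and -0.01 in the ethanol animals. On both measures the 3 ethanol animals lay inside the range of the 4 controls. The difference between the measures was -0.55, -0.03, 0.34 and 0.25 in controls 1 to 4. In the ethanol animals it was 0.25, -0.01 and 0.04, within the control range, with a mean of 0.09. Its SD was 0.40 between controls, where control 1 lay farthest from 0, and 0.14 between ethanol animals.

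Control 1 held the lowest value of 8 of the 11 chaperones (Hsp90b1, Calr, Hyou1, Pdia3, Pdia4, Pdia6, Sdf2l1 and Creld2), or 72.7%, where it held the lowest value of 16.6% of all tested genes. It also held the highest value of Asns, Fgf21 and Nupr1, which is 30.0% of the Atf4 targets against 18.6% of all tested genes, and the lowest of Atf5 and Ddit4 (2 of 10 genes, against 16.6%). Ethanol 3 held the lowest value of Ddit3, Trib3 and Fgf21 (30.0%, against 16.2%) and the highest of Atf5 and Chac1 (2 of 10 genes, against 17.3%). Control 3 held the highest value of 5 chaperones (Hspa5, Hsp90b1, Pdia4, Sdf2l1 and Creld2), or 45.5%, against 9.73% of all genes. Genes of these lists share regulation, so the counts are not independent.

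**Figure D4:**
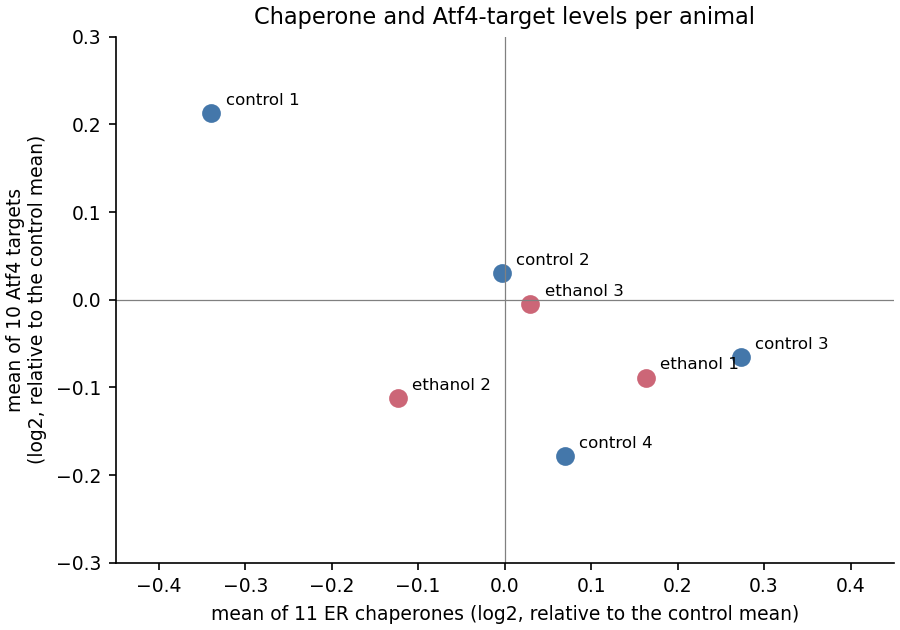
Mean log2 level of the 11 tested ER chaperones (horizontal axis) and of the 10 Atf4 targets (vertical axis) in each animal, both relative to the mean of the 4 controls. Control 1 lies apart at -0.34 and 0.21, and the ethanol animals lie within the range of the controls on both axes.

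The wider pathway was covered by 116 tested genes that are not members, of which none passed the threshold. At an unadjusted limma p under 0.05 there were 14, or 12.1%, against 9.12% of all tested genes, 5 with positive and 9 with negative values, and their median log2 fold change was 0.00. In the list of other ER folding genes, Selenos, a selenoprotein that links the degradation machinery to its ATPase, had 3796 ± 220 (SD, n = 4) and 2897 ± 163 (SD, n = 3), a log2 fold change of -0.40 ± 0.09 (adjusted p 0.336 in limma). Dnajc10, the ER disulfide reductase ERdj5, had -0.35, with -0.32 and 0.08 at its other probes. Both were lower in ethanol livers without overlap between groups, and 1 other gene of the list was higher without overlap. Together they were 15.0% of the tested genes of the list, against 8.96% of all tested genes. The list as a whole held 11 positive and 9 negative values.

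Genes of the translocon and signal peptidase, which bring secretory proteins into the ER, were positive in 7 and negative in 13 of 20. Srp14, an RNA-binding subunit of the signal recognition particle, had -0.27 (adjusted p 0.429), and Sec63, a J protein of the translocon, had 0.18. The other degradation genes had 11 positive and 4 negative values, none with an unadjusted limma p under 0.05. Nploc4, a cofactor of the ATPase Vcp, had 0.21 and Sec61b had 0.16. Sec61b is a translocon subunit and was counted in the translocon list too. Among the eIF2 kinases and initiation factors, 5 positive and 7 negative, the heme-regulated kinase Eif2ak1 had 0.23 (second probe -0.01) and the RNA-activated kinase Eif2ak2 had 0.13. Of the other ER stress regulators, 8 positive and 7 negative, Bcl2l11, the death effector BIM, had -0.35, with 0.21 and 0.02 at its other probes, and Nfyb, a subunit of the factor that binds the CCAAT part of ERSE, had -0.28.

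The amino acid and tRNA charging genes under Atf4 had 10 positive and 11 negative values. Mthfd2, a mitochondrial folate enzyme, had 117 ± 25.0 (SD, n = 4) and 208 ± 65.1 (SD, n = 3), a log2 fold change of 0.56 ± 0.16 (adjusted p 0.427 in limma), with 0.25 at its second probe. Slc1a4, a transporter of small neutral amino acids, had -0.38. The other genes linked to Atf4 and CHOP had 7 positive and 7 negative values. Among them Vegfa, the endothelial growth factor, had -0.36 (second probe -0.27) and the stress gene Gadd45a had -0.70 (second probe -0.49). Their adjusted p-values were 0.360 and 0.446.

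Markers of cell types with a large ER load were also examined. Of 7 plasma and B cell markers with a probe, 4 were above background on any array, and Jchain, Ms4a1 and Pou2af1 on none. The summed intensity of that list was 382 to 601 in control and 478 to 539 in ethanol animals. Of 12 pancreatic acinar genes 7 were above background, and Cpa1, Cel, Ctrb1, Prss2 and Try4 were not, while the sum (11318 to 13526 and 10836 to 13350) came mostly from Amy2a5, whose sequence is close to that of the amylase Amy1. Hepatocyte markers were above background in 9 of 10 genes, with sums of 221339 to 262861 in control and 252919 to 266248 in ethanol animals. Of 10 Kupffer cell markers 9 were above background, with sums of 6382 to 7275 and 5972 to 9629, and 9 of 10 stellate cell markers were, with 8778 to 10165 and 7493 to 9031. Endothelial markers (7 of 8 above background) had sums of 9455 to 13632 and 9548 to 11993, cholangiocyte markers (4 of 6) 265 to 751 and 305 to 599, and erythroid markers (3 of 4) 37179 to 49871 and 47331 to 55152. These counts are of genes above background on at least 1 array. On all 7 arrays there were 9 hepatocyte, 9 Kupffer cell, 7 endothelial, 6 stellate cell and 4 acinar markers. There were also 3 erythroid, 2 plasma and B cell and 1 cholangiocyte markers. The direction of single markers was uneven. All 9 tested Kupffer cell markers had positive log2 fold changes (median 0.17) and 2 of them, C1qb and C1qc, an unadjusted p under 0.05, while 9 of 10 stellate cell markers had negative ones (median -0.12), with Lrat, Dcn and Col3a1 under that p. All 3 tested erythroid markers were positive (median 0.14), with Alas2 under that p. Of 8 endothelial markers 6 were negative (median -0.08), with Lyve1 under that p. Of 8 tested pancreatic acinar markers 6 were negative (median -0.10), and the only one under that p was positive, Cela1 (0.63). Plasma and B cell markers were positive in 4 of 6 tested genes (median 0.03) and cholangiocyte markers in 2 of 4 (median 0.01). Hepatocyte markers were positive in 8 of 10 genes (median 0.04). An unadjusted limma p under 0.05 was thus found in 22.2% of Kupffer cell, 30.0% of stellate cell and 33.3% of erythroid markers. It was found in 12.5% of endothelial and 12.5% of acinar markers, and in none of the other lists. Over all tested genes this share was 9.12%. None of these markers passed the adjusted threshold. The part of any cell type in the values of the members was not tested.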

How the data were processed

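The data were the authors' deposited intensities of 45281 probes on 7 arrays, on a linear scale. The submitters' processing notes name GenomeStudio, and its version, background method and normalization are not given in the sources used here. Values reached below 0, down to -30.3, and the array medians lay between 5.13 and 5.94, so low intensities carry an unknown background step of the authors. A second deposited table was not used, since its 14 value columns match no sample label. Array number limits the precision.

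Intensities were corrected with normexp (offset 50), log2-transformed and quantile-normalised in limma 3.58.1 (R 4.3.3). Above background means over 3 times the root mean square of the array's negative values, which 13951 to 15068 probes per array were. Groups were compared with lmFit and eBayes over all tested probes, two-sided. SE and 95% intervals are limma's. The fit was tested on simulated data. Of all probes, 34885 had 1 gene symbol. In the annotation, 34807 probes with 1 symbol were named through the gene ID (RefSeq, GRCm38.p6). Every member is named. Of each other pathway list, the 2 genes with the smallest p are. The members and lists were chosen with earlier results of these data known. Alternatives covered background, normalization, filter, variance, probe choice, replicate block and single animals.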

Additional observations from a re-analysis of the deposited data

Results flagged for a closer look

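In the control group, the only group with enough samples for this check, the value of 1 animal stood apart in 3 of the 32 members by Dixon's ratio of the gap to the range, with a 95% critical value of 0.829. Chance flags about 1 group in 20. Hspa5 was highest in control 3 (ratio 0.880), and its log2 fold change was -0.28 without that animal. Chac1 was also highest in control 3 (ratio 0.903), and had 1.05 without it. Atf4 was lowest in control 1 (ratio 0.926), and had -0.26 without it.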

How the results depend on the processing

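The number of all probes past the threshold was 5, and it was 0 without background correction, with only probes above background or with unmoderated variances, 1 with trended robust variances, 3 with a normexp offset of 16 and 8 without a filter on dim probes. It ran from 0 to 27 without 1 animal (0 without control 1, 3 or 4, 1 without control 2, and 27, 2 and 3 without ethanol 1, 2 and 3). Of the members, 0 passed in each of these settings. Same-numbered samples correlated at -0.19, 0.09 and 0.20 in their deviations from the group means and control 1 correlated best with ethanol 2 (0.30), so the numbers were not taken to pair samples. With the replicate number as a block, 24 probes and 1 member passed, Trib3 (-0.89, adjusted p 0.0419 in limma, against 0.339 to 0.779 without 1 animal), Dnajc3 had -0.0072 and Ddit3 0.0066. The count of members without overlap ran from 4 to 8 without 1 animal (12.5% to 25.8%), while the share of all tested genes ran from 12.6% to 20.3%. The chaperone median ran from -0.02 (without control 1) to 0.14 (without control 3), and the Atf4 target median from -0.13 to -0.02. In other settings they ran from 0.03 to 0.15 and from -0.20 to -0.02. Of 536 values of single members under other settings, 19 changed sign, in 12 members whose log2 fold changes were at most 0.23 in size. Without 1 animal these ranged from -0.12 to 0.14 (Hsp90b1), -0.023 to 0.13 (Hyou1), -0.017 to 0.27 (Pdia4), -0.087 to 0.10 (Dnajc3), -0.026 to 0.51 (Herpud1), -0.16 to 0.039 (Derl1), -0.0097 to 0.22 (Atf5), -0.12 to 0.010 (Ddit3), -0.21 to 0.044 (Sesn2), -0.33 to 0.0080 (Nupr1), -0.13 to 0.23 (Ppp1r15a) and -0.10 to 0.19 (Ppp1r15b). Signals near background limit what can be said of Canx, Manf, Atf6, Derl1, Sesn2 and Eif2ak3. The low signals of its single probe limit what can be said of Hspa5.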
